A study of Mus musculus with 6 samples.

Results

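The nuclear pore proteins and the karyopherins were followed in RNA recovered with Staufen2 and in total RNA of mouse podocytes. Members were chosen by gene symbol: numbered Nup genes, the importins (Ipo, Kpna, Kpnb1), the transportins (Tnpo), the exportins (Xpo), and Tpr, Ranbp2, Ran, Rae1, Seh1l, Ahctf1 and Ndc1. Of 49 such genes in the reference gene table, 47 had a probe set listed with that single symbol, out of 19938 genes measured, and Nup35 and Tpr were not analysed here. The cells were an immortalized murine podocyte line, grown at 33°C with gamma-interferon and differentiated by a switch to 37°C without it. The samples were 3 arrays of total input RNA (input) and 3 arrays of RNA that an anti-Staufen2 antibody pulled from a cytoplasmic extract (stau2, called the pulldown here). Both groups came from untreated differentiated cells and were labelled from 100 ng of RNA each, so the values describe shares of the labelled RNA and not how much was recovered. A control-antibody pulldown was not analysed here, and a higher value therefore describes recovery relative to the input, which need not be binding.

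Nuclear pores are ring-shaped assemblies of nucleoporins set into the nuclear envelope. Scaffold rings hold a channel lined by proteins rich in phenylalanine-glycine repeats, which lets karyopherins pass with their cargo. Importins load cargo in the cytoplasm and release it in the nucleus when they meet the GTP form of the small GTPase Ran, and exportins do the reverse. In humans, recessive variants of NUP85, NUP93, NUP107, NUP133, NUP160, NUP205 and XPO5 have been reported in steroid-resistant nephrotic syndrome, a disease of the podocyte. Staufen2 binds double-stranded stretches of RNA and is known from mRNA transport in neurons.

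Array medians were 6.53 to 6.54 on the log2 scale, and arrays correlated (Pearson) at 0.998 to 0.999 within a group and at 0.982 to 0.983 across groups. Of 13 podocyte markers 11 were measured. The mRNAs of Wt1 (9.57 in the input), Synpo (8.29), Cd2ap (11.98), the slit diaphragm protein Kirrel (11.34) and the junction scaffold Tjp1 (10.99) exceeded the overall probe set median of 6.54, whereas Nphs1 (6.30), Podxl (6.04), Ptpro (6.10) and Trpc6 (5.49) did not. At such levels signal can be background. Most markers of endothelial, tubular and immune cells were dim as well: 7 of these 18 exceeded the median of all probe sets in either group. Of the tubular markers these were Lrp2 (9.36 in the input), Cubn (7.06), Aqp2 (6.92) and Slc34a1 (6.49, above it only in the pulldown). The others were the immune markers Cd14 (7.68 in the input) and Cd68 (7.38) and the endothelial Ehd3. Of the 6 mesangial and smooth muscle markers, Pdgfrb (11.45 in the input) and Acta2 (13.57) were bright in both groups. Myh11 (10.36) and Gata3 (8.84) also exceeded the median, whereas Des (6.48) and Itga8 (5.21) did not in the input. The summed signal (log2 of the sum) of the 11 podocyte markers was 14.20 to 14.24 on the input arrays and 14.52 to 14.55 in the pulldown. That of the 6 mesangial and smooth muscle markers was 14.03 to 14.05 and 14.29 to 14.32. The 6 endothelial markers gave 10.58 to 10.61 and 10.84 to 10.89, and the 6 tubular markers 10.07 to 10.11 and 10.24 to 10.32. The 6 immune markers gave 9.17 to 9.25 and 8.95 to 9.03. Such sums weigh the brightest markers most. Among the endothelial ones only Ehd3 (10.34 in the input, difference 0.31) exceeded the median, and Emcn was lower (-0.26). The part of these cell types in the results was not tested. Whether the 3 samples of a group were separate cultures is not stated in the labels, and p-values then cover only the variation among these samples, which may be technical.

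Most mRNAs of the transport machinery made up a larger part of the RNA in the Staufen2 pulldown than of the input. Of the 47 members, 37 were higher in the pulldown, 6 were lower and 4 did not pass limma's moderated test at a Benjamini-Hochberg adjusted p under 0.05, adjusted over all 19938 genes. In the same test 31.3% of all genes were higher and 17.3% lower. In either direction, 43 members and 48.7% of all genes passed. Because 45 of the 47 members exceeded the overall probe set median in at least 1 group, the closer background is the 12162 genes that do so, of which 72.6% passed, 45.9% higher and 26.8% lower. The median log2 difference (pulldown minus input) was 0.32 over the members, 0.04 over all genes and 0.09 over the brighter genes. The sizes were moderate: 1 member, Ipo8, differed by at least 2-fold, against 3.67% of all genes and 6% of the brighter ones. In 43 members the values of the groups did not overlap, which was also so for 55.9% of all genes and 78.1% of the brighter ones.

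**Figure D1:**
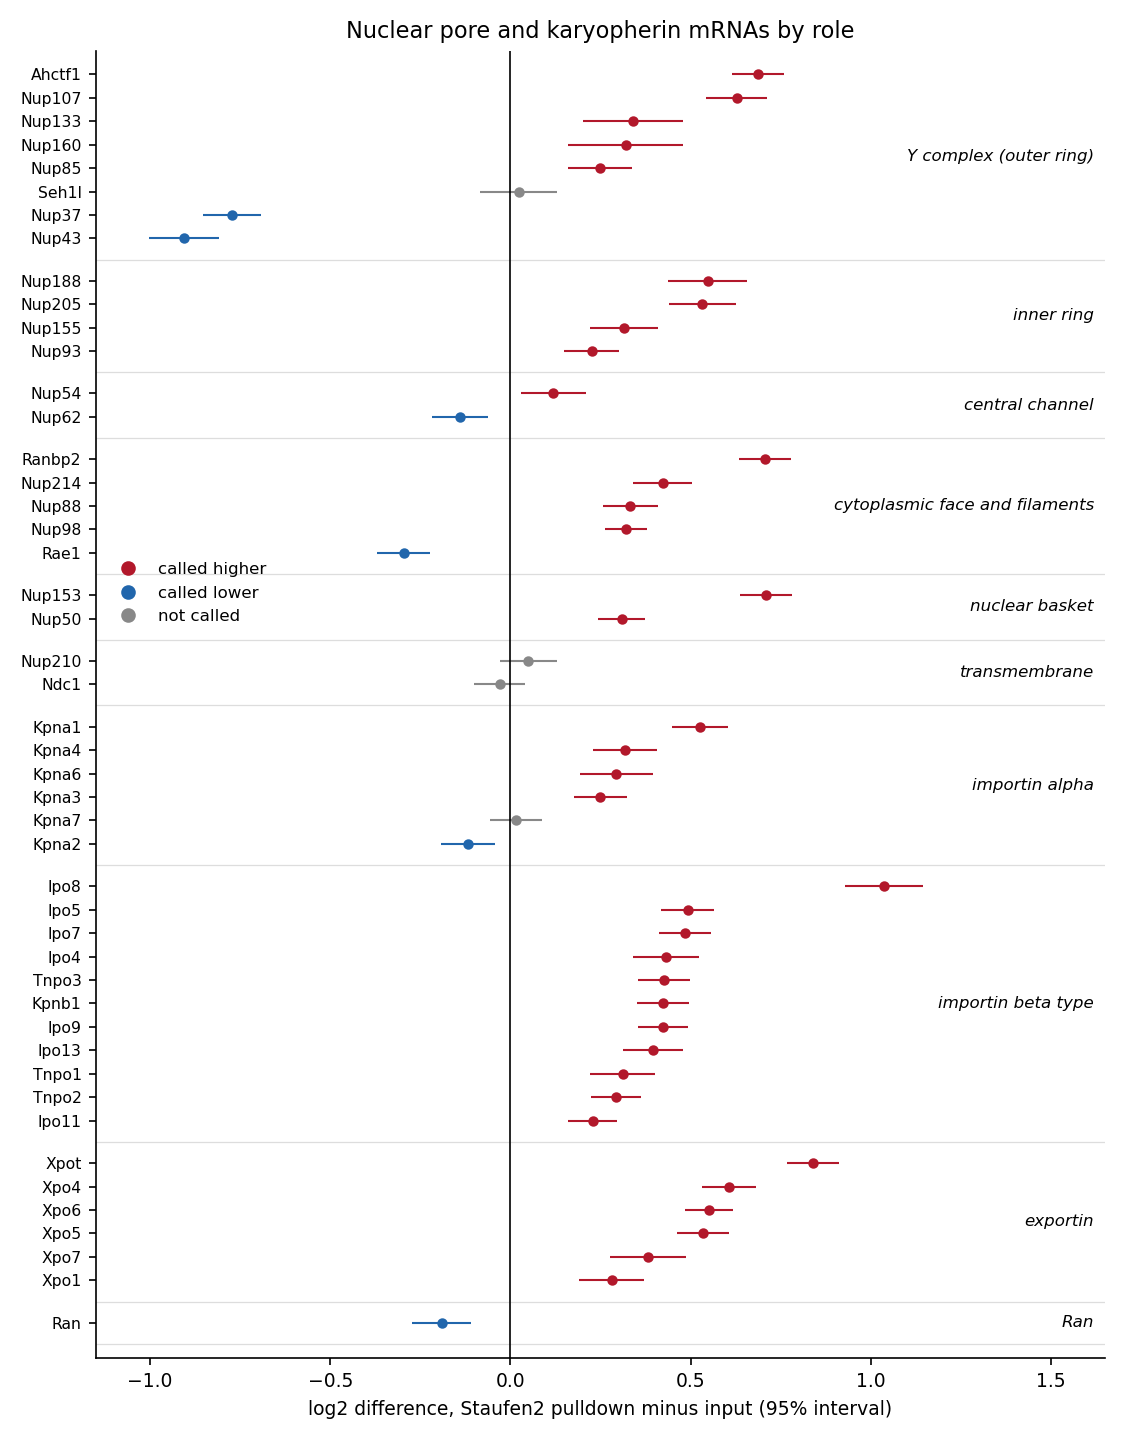
Log2 difference of each of the 47 members, pulldown minus input (points), with its 95% interval from the moderated fit over 3 arrays per group (bars), ordered by role and coloured by the test. All 17 importins of the beta type and exportins lie to the right of 0, whereas the nucleoporins range from -0.91 (Nup43) to 0.71 (Nup153).

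The nucleoporins were split. In the pulldown 16 of 23 were higher and 4 lower, and 3 did not pass, with a median log2 difference of 0.32. The split ran through the Y complex, the scaffold of the outer rings. Ahctf1 (ELYS), the chromatin-binding subunit that seeds pore assembly after mitosis, had log2 values of 11.08, 11.05 and 11.03 in the input and 11.70, 11.74 and 11.77 in the pulldown. Every pulldown array stood above every input array, and the difference was 0.69 ± 0.031 (moderated SE, n = 3 per group, limma adjusted p = 1.3e-06), or 1.61-fold. Nup107, a core stem subunit, had values of 9.48, 9.39 and 9.48 in the input and 10.09, 10.04 and 10.11 in the pulldown, a difference of 0.63 ± 0.036 (limma adjusted p = 4.1e-06). Nup133 (0.34), also of the stem, and Nup160 (0.32) and Nup85 (0.25), of the arms, were higher by smaller amounts. After cyclic loess normalization Nup160 stood at 0.21 and Nup85 at 0.14, still past the test.

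The small propeller subunits of the same complex went the other way. Nup43 had log2 values of 9.96, 10.02 and 10.06 in the input and 9.09, 9.06 and 9.17 in the pulldown. Its difference of -0.91 ± 0.041 (SE, limma adjusted p = 1.4e-06) corresponds to a 1.87-fold lower level in the pulldown, and the groups lay far apart relative to their spread. Nup37 had values of 9.54, 9.50 and 9.55 in the input and 8.78, 8.78 and 8.70 in the pulldown. It was 1.71-fold lower, at -0.77 ± 0.034 (limma adjusted p = 1.2e-06). Seh1l, another subunit of this kind, did not pass (0.02 ± 0.046, limma adjusted p = 0.71), and its groups overlapped.

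All 4 measured genes of the inner ring, the scaffold next to the pore membrane, were higher. The large solenoid proteins Nup188 and Nup205, which both bind Nup93, stood at 0.55 ± 0.047 and 0.53 ± 0.039 (log2 difference ± SE), and Nup155 and Nup93 at 0.32 ± 0.040 and 0.23 ± 0.032. In none of them did the groups overlap, and Nup155 and Nup93 were still higher after cyclic loess, at 0.21 and 0.12. Of the central channel proteins, which carry the phenylalanine-glycine repeats through which cargo passes, Nup62 and Nup54 were measured among the members. Nup62 had log2 values of 10.78, 10.72 and 10.76 in the input and 10.64, 10.57 and 10.64 in the pulldown, a difference of -0.14 ± 0.033 (limma adjusted p = 0.0088), and of -0.25 after cyclic loess. Nup54 stood at 0.12 ± 0.039 (limma adjusted p = 0.037), and this call was lost after cyclic loess normalization (0.01, adjusted p = 0.88), after centring on the brightest probe sets (0.08, adjusted p = 0.13) and in 5 of the 6 fits that left out 1 array, where its adjusted p was 0.068 to 0.12.

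On the cytoplasmic face, Ranbp2 (Nup358), the filament protein that binds Ran and acts as a SUMO ligase, had log2 values of 11.02, 11.04 and 11.00 in the input and 11.70, 11.76 and 11.71 in the pulldown. The groups were well apart, and the difference was 0.71 ± 0.031 (SE, limma adjusted p = 1.1e-06), or 1.63-fold. Nup214 (0.42) and its partner Nup88 (0.33) were higher, as was Nup98 (0.32), whose gene encodes a precursor of both Nup98 and the Y complex protein Nup96. Rae1, an mRNA export factor that docks on Nup98, had values of 10.10, 10.09 and 10.12 in the input and 9.76, 9.83 and 9.83 in the pulldown. It was lower, at -0.30 ± 0.032 (limma adjusted p = 0.00012), and a second, dimmer probe set of Rae1 gave -0.31 ± 0.057.

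Both measured proteins of the nuclear basket were higher. Nup153, which anchors the basket and binds importins, had log2 values of 11.29, 11.33 and 11.26 in the input and 12.03, 11.98 and 12.01 in the pulldown. With 0.71 ± 0.031 (SE, limma adjusted p = 1.1e-06) it was 1.64-fold higher, the largest positive difference among the nucleoporins chosen by symbol. Nup50, which helps to release importin alpha from its cargo, stood at 0.31 ± 0.028. The transmembrane nucleoporins among the members did not pass: Ndc1 stood at -0.03 ± 0.030 (limma adjusted p = 0.46) and Nup210 at 0.05 ± 0.034 (adjusted p = 0.27). Nup210 had a log2 value of 5.84 in the input, below the median of all probe sets, so little can be read from it. Ndc1 was lower after cyclic loess (-0.14, adjusted p = 0.0050).

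The karyopherins were higher with few exceptions: 21 of 23 were higher, 1 was lower and 1 did not pass, with a median log2 difference of 0.42. All 17 members of the importin beta type and of the exportins, which share one superfamily of helical-repeat transport receptors, were higher, and they remained so under every alternative tried other than a test against a 1.2-fold change, where 12 of them passed. The extent varied among these 17 members from 0.23 (Ipo11) to 1.04 (Ipo8). Cse1l, an exportin that the choice by symbol leaves out, had a smaller positive difference (0.11). After cyclic loess Ipo11 stood at 0.12.

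Kpnb1, importin beta itself, which carries cargo bound to importin alpha, had log2 values of 11.44, 11.41 and 11.36 in the input and 11.83 on each of the 3 pulldown arrays. It was higher by 0.42 ± 0.031 (SE, limma adjusted p = 1.5e-05), close to the median of the superfamily's members chosen by symbol (0.43). Ipo8, an importin described for Argonaute and SMAD proteins, had values of 9.88, 9.79 and 9.96 in the input and 10.94, 10.91 and 10.89 in the pulldown. All pulldown arrays lay well above the input, and the difference of 1.04 ± 0.046 (limma adjusted p = 1.2e-06) was 2.05-fold. Ipo7, its closest relative and an importer of ribosomal proteins and histone H1, had values of 11.34, 11.36 and 11.29 in the input and 11.80, 11.81 and 11.84 in the pulldown. Its difference was 0.49 ± 0.031 (limma adjusted p = 7.0e-06).

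Among the remaining importins, Ipo11 had the smallest difference (0.23). Ipo5 (0.49), which imports ribosomal proteins, Ipo4 (0.43), Ipo9 (0.42), described for histones and actin, and Ipo13 (0.40), which works in both directions, were near Kpnb1. The transportin Tnpo3 (0.43) imports splicing factors of the SR family. Tnpo1, the receptor of hnRNP proteins, had log2 values of 11.39, 11.41 and 11.43 in the input and 11.66, 11.79 and 11.71 in the pulldown, with a difference of 0.31 ± 0.038 (SE). Its relative Tnpo2 had values of 11.57, 11.57 and 11.59 in the input and 11.86, 11.84 and 11.91 in the pulldown, with 0.29 ± 0.029 (0.19 after cyclic loess). In both transportins the groups did not overlap, and both had about the same difference.

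**Figure D2:**
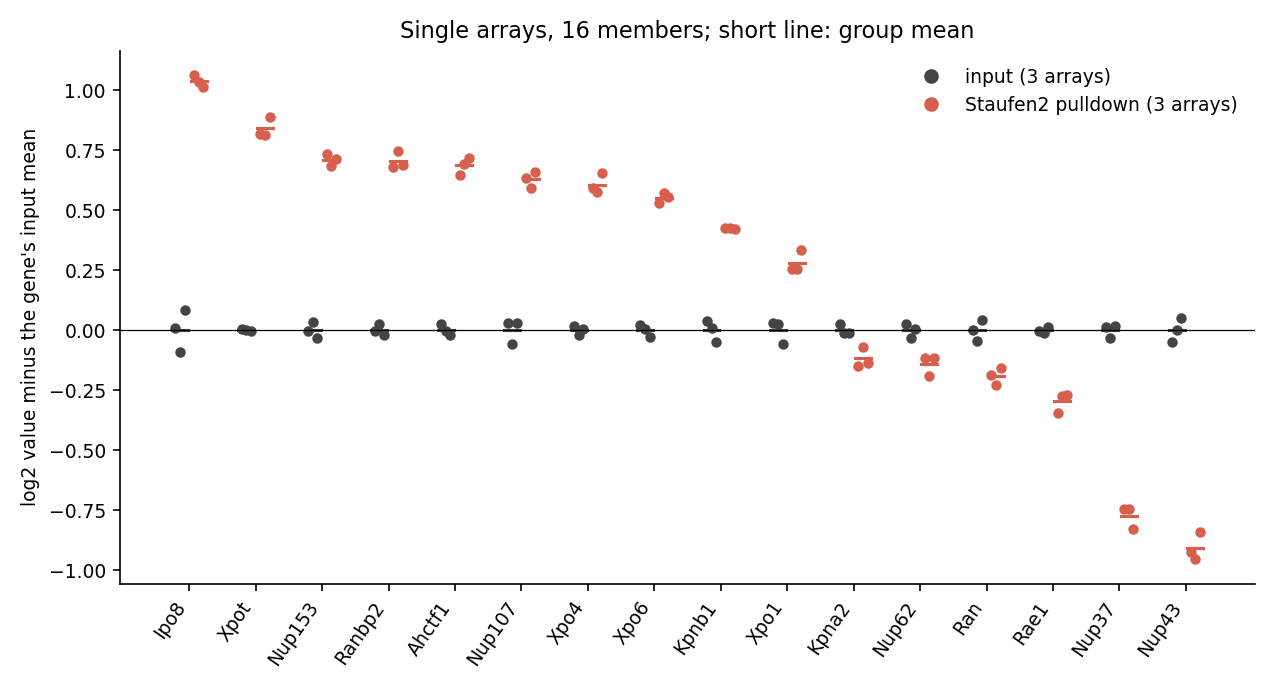
Log2 values on single arrays relative to the gene's input mean, for the 8 largest positive differences, Kpnb1, Xpo1 and the 6 members that were lower (points: arrays, 3 per group; short lines: group means). The input arrays scatter by 0.09 or less around their mean and the groups do not overlap in any of the 16 genes, with differences from 1.04 for Ipo8 to -0.91 for Nup43.

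All 6 exportins among the members were higher, with a median log2 difference of 0.54. Xpot, the exportin of transfer RNA, had log2 values of 11.00, 11.00 and 10.99 in the input and 11.82, 11.81 and 11.89 in the pulldown. Its difference of 0.84 ± 0.031 (SE, limma adjusted p = 6.1e-07), or 1.79-fold, was exceeded among the positive differences of the members by Ipo8 alone. Xpo4, described for the translation factor eIF5A, had values of 10.19, 10.15 and 10.17 in the input and 10.76, 10.74 and 10.82 in the pulldown. It was higher by 0.61 ± 0.032 (limma adjusted p = 2.6e-06). Xpo6, the exportin of actin bound to profilin, had values of 11.61, 11.60 and 11.56 in the input and 12.12, 12.16 and 12.14 in the pulldown, with 0.55 ± 0.028 (limma adjusted p = 2.4e-06). Xpo5, which exports precursors of microRNAs, stood at 0.54 ± 0.031 and Xpo7 at 0.38 ± 0.045. Xpo1 (CRM1), the general exportin of proteins with a leucine-rich signal, had the smallest difference of these 6 exportins. Its log2 values were 10.85, 10.85 and 10.76 in the input and 11.08, 11.08 and 11.16 in the pulldown, a difference of 0.28 ± 0.038 (limma adjusted p = 0.00048), and of 0.18 after cyclic loess.

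The importin alpha adaptors, which bind the classical nuclear localization signal and hand it to Kpnb1, were more mixed, with 4 of 6 higher. Kpna1 had log2 values of 10.66, 10.62 and 10.66 in the input and 11.19, 11.12 and 11.21 in the pulldown, a difference of 0.53 ± 0.033 (SE). Kpna6, of the same subfamily, had values of 11.32, 11.23 and 11.26 in the input and 11.57, 11.50 and 11.63 in the pulldown, a difference of 0.29 ± 0.043 (0.19 after cyclic loess). The groups did not overlap in either gene. Kpna3, of another subfamily, had values of 11.46, 11.41 and 11.41 in the input and 11.68, 11.71 and 11.65 in the pulldown, a difference of 0.25 ± 0.031 (0.15 after cyclic loess). Kpna4, its close relative, had values of 11.25, 11.17 and 11.15 in the input and 11.48, 11.55 and 11.51 in the pulldown, a difference of 0.32 ± 0.038. Here too each pulldown array stood above each input array.

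Kpna2, the adaptor typical of dividing cells, was the one lower karyopherin, with log2 values of 12.04, 12.01 and 12.01 in the input and 11.87, 11.95 and 11.88 in the pulldown. The difference of -0.12 ± 0.032 (SE, limma adjusted p = 0.018) was small, and the call was lost without input replicate 1, stau2 replicate 1 or stau2 replicate 3 (adjusted p = 0.057, 0.064 and 0.059). After cyclic loess the difference was -0.21 (adjusted p = 0.00070) and after centring on the brightest probe sets -0.16 (adjusted p = 0.0048). The other probe sets of Kpna2 gave -0.08 and -0.10. Kpna7, an adaptor known from oocytes and early embryos, did not pass (0.02 ± 0.031, adjusted p = 0.69) and was dim, at 5.90 in the input.

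Ran, the GTPase that gives transport its direction, was lower. Its log2 values were 10.62, 10.58 and 10.66 in the input and 10.43, 10.39 and 10.46 in the pulldown. The groups did not overlap, and the difference was -0.19 ± 0.035 (SE, limma adjusted p = 0.0024), or 1.14-fold lower. After cyclic loess it was -0.30 (adjusted p = 9.1e-05).

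For 4 pairs of closely related karyopherins the differences were set against each other, array by array. The log2 difference of Ipo7 minus that of Ipo8 was -0.55 ± 0.055 (SE, taking the probe sets' errors as independent), and that of Kpna1 minus that of Kpna6 was 0.23 ± 0.054, in both cases without overlap between the groups. For Kpna3 and Kpna4 it was -0.07 ± 0.049, also without overlap, and for Tnpo1 and Tnpo2 0.02 ± 0.048, with overlap. An exact permutation test of 3 against 3 arrays (2-sided) cannot give a p below 0.10, and it gave p = 0.10 for Ipo7 with Ipo8, Kpna1 with Kpna6 and Kpna3 with Kpna4 and p = 1 for the transportins. Adjusted over the 4 pairs the exact p was 0.13 for the former. With 3 arrays a group this test cannot call a pair either way.

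The 7 members named above for human nephrotic syndrome were all higher in the pulldown, with log2 differences from 0.23 (Nup93) to 0.63 (Nup107) and a median of 0.34. This short list was put together with the values known, is not complete, and is given as a description. Its median lay close to that of all 47 members (0.32).

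The members were also ordered by size, which the choice by symbol did not use. Genomic span, the length of the gene with its introns, follows mRNA length only roughly. Of 9 members spanning under 20 kb, 4 were higher and 5 lower, with a median log2 difference of -0.12. Of 17 members spanning 20 to 50 kb, 13 were higher and 1, Nup37, was lower (median 0.40), and of 21 members spanning 50 kb or more, 20 were higher and none lower (median 0.38). The exception among the 21 was Nup210, which was dim. Of coding genes above the median level, 27.2% were higher and 41.3% lower below 20 kb, 52.7% and 20.3% from 20 to 50 kb, and 72.4% and 9.43% from 50 kb on, with medians of -0.04, 0.15 and 0.37.

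Spearman's rank correlation of the log2 difference with span was 0.37 across the 47 members, and 0.34 to 0.40 when each pulldown array was taken alone. Across 18556 coding genes it was 0.36. Among genes above the median level it was 0.39 across 45 members and 0.48 across 11770 coding genes. The points share the same 6 arrays and genes are not independent replicates, so these are descriptions without a p. The number in a Nup symbol is by convention the approximate mass of the protein in kilodaltons, and gives a second view. For Nup98, whose gene encodes a precursor that also holds Nup96, the number understates the size of the product. Of the 5 members numbered 37 to 62, 3 were lower (Nup37, Nup43 and Nup62) and 2 higher (Nup50 and Nup54). All 4 numbered 85 to 98 were higher, as were 8 of the 9 numbered 107 to 214, the exception again being Nup210. The rank correlation of the difference with this number was 0.62 across the 18 genes and 0.79 across the 17 without Nup210. Across the same 17 genes the rank correlation with span was 0.49. The number has no counterpart among genes at large, so no background can be set beside it. Nupl1 (Nup58), left out by its symbol, stood at 0.30.

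**Figure D3:**
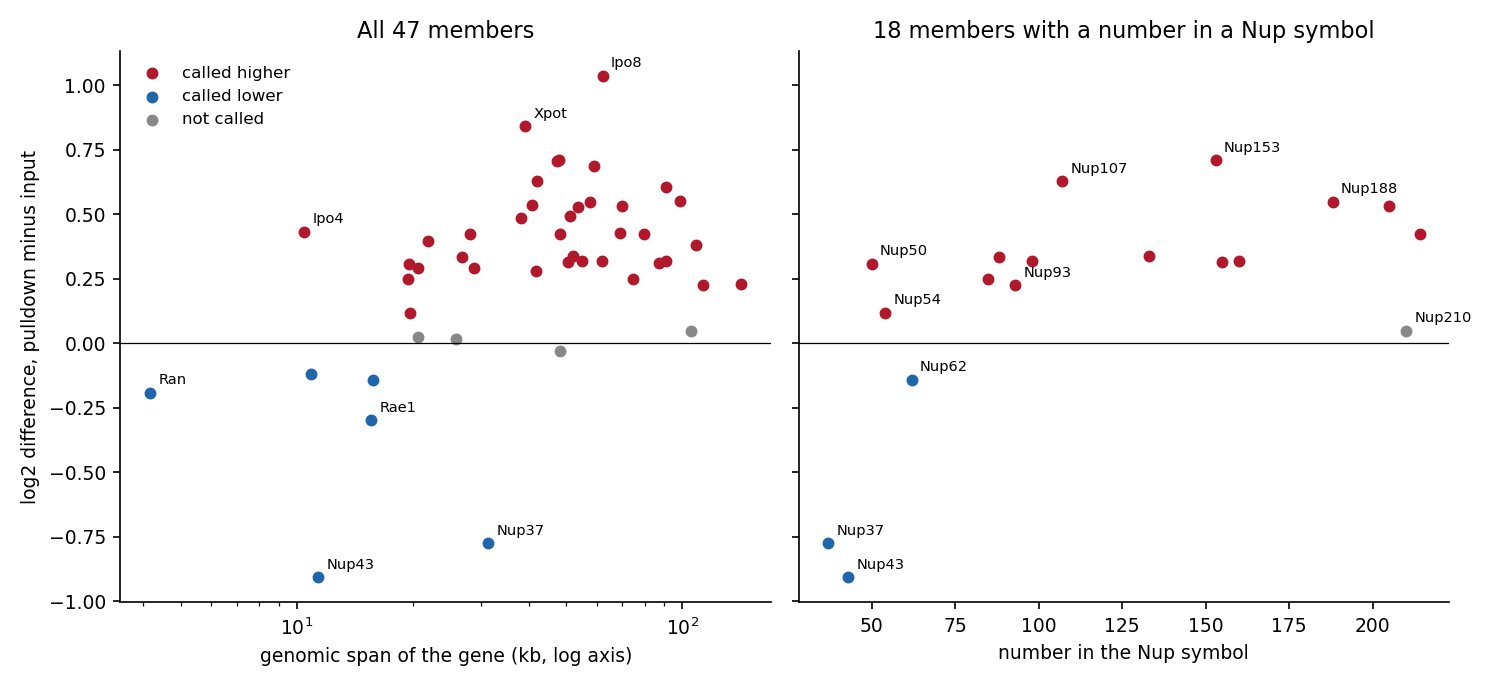
Log2 difference (pulldown minus input) of the members against the genomic span of the gene in kb (log axis, left, 47 genes) and of the numbered Nup genes against the number in their symbol (right, 18 genes), 1 point per gene, coloured by the test. Of the 6 lower members 5 span under 20 kb and Nup37 spans 31.4 kb. The lower genes drawn on the right (Nup37, Nup43 and Nup62) lie at its left side. Rank correlations are 0.37 and 0.62.

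Genes that work with the members were taken from lists that the choice by symbol leaves out. The lists went in both directions, as did the genes at large. For each list the background is the genes above the median level, of which 45.9% were higher and 26.8% lower (median log2 difference 0.09). Of 12 other pore and karyopherin genes measured, out of 13 listed, 6 were higher and 5 lower (median log2 difference 0.08). Heatr3, an importer of a ribosomal protein, was higher by 0.68 ± 0.046 (SE). The Nup210 relative Nup210l was higher by 1.08 ± 0.076, with a log2 value of 6.99 in the input at the brightest of its probe sets. Sec13, a small propeller protein of the Y complex and of COPII coats, was lower, at -0.45 ± 0.043, as was Aaas (aladin), at -0.24 ± 0.026. Further genes were named after their values were seen. Nupl1 (Nup58), the channel partner of Nup62 and Nup54, stood at 0.30 (limma adjusted p = 0.0012). The transmembrane nucleoporin Pom121 stood at 0.31 (limma adjusted p = 0.0021), and Cse1l, the exportin that recycles importin alpha, at 0.11. Gle1 (0.17) was also higher, whereas Nupl2 (-0.27), Tmem33 (-0.23) and Snupn (-0.16) were lower, and Nup62cl did not pass.

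Of 8 measured genes on a list of Ran cycle partners, out of 11 listed, 4 were higher and 2 lower (median 0.15). Whether each listed gene acts in the cycle was not examined. Rangap1, which makes Ran hydrolyse its GTP, was higher by 0.73 ± 0.035 (SE), Ranbp10 by 0.51 ± 0.060 and Ranbp9 by 0.19 ± 0.030. Rangrf (Mog1), a small protein that binds Ran, was lower, at -1.01 ± 0.037. Ranbp1, named after its values were seen, stood at -0.19 ± 0.030, the same as Ran. Rcc1, the exchange factor of Ran, is also named outside the rule of the 4 smallest adjusted p. It did not pass (0.10 ± 0.045, limma adjusted p = 0.10).

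The mRNA export factors went both ways, with 7 of 22 measured higher, 8 lower and 7 not past the test (median 0.01). These were 31.8% higher and 36.4% lower, against 45.9% and 26.8% of the genes above the median level. The export receptor Nxf1 was higher by 0.41 ± 0.034 (SE) and Mcm3ap, the scaffold of the TREX-2 complex, by 0.72 ± 0.060, while Eny2, a small TREX-2 subunit, stood at -0.32 ± 0.027 and the THO subunit Thoc6 at -0.61 ± 0.058. Of 20 genes of the nuclear envelope and lamina, 12 were higher and 4 lower (median 0.14). The giant nesprin Syne2, which links the nucleus to the cytoskeleton, was higher by 1.37 ± 0.055, the lamin Lmnb1 by 0.79 ± 0.041 and the inner membrane protein Lemd3 by 0.75 ± 0.037. Banf1, a very small chromatin-binding protein, was lower, at -0.87 ± 0.033. The difference between any of these lists and the members, or the brighter genes, was not tested.

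**Figure D4:**
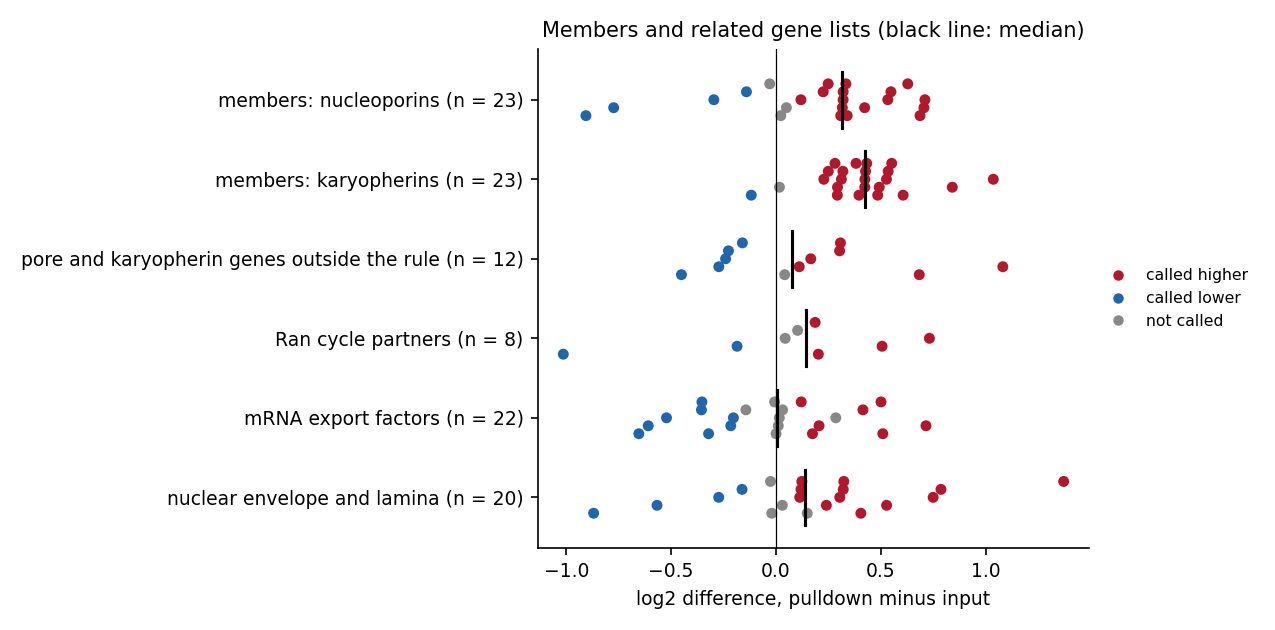
Log2 difference (pulldown minus input) of single genes, 1 point per gene coloured by the test, for the 23 nucleoporins and 23 karyopherins among the members (Ran is not drawn) and for 4 lists of genes outside them. Black lines mark medians, which are 0.32 and 0.42 for the members and 0.01 to 0.15 for the other lists. The median of all genes above the median level (0.09) is not drawn.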

How the data were processed

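The authors deposited a table of log2 expression by probe set with a column for each array. RMA and limma are named in the submitters' processing notes, with versions and genome build not given in the sources used here. As usually run, RMA equalises the arrays' distributions, so a difference is relative to the bulk of RNAs. The number of arrays limits the precision.

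Of 35556 probe sets, 21789 had 1 symbol in the platform annotation. The brightest per gene over 6 arrays was used, and 2 members had several. Differences (pulldown minus input) came from limma 3.58.1 in R 4.3.3 (2-sided, no covariates), called at an adjusted p under 0.05 over all 19938 genes. SEs are moderated. The fit was tried on simulated data with independent noise, far fewer differing genes than here and no normalization step. That trial does not show how calls behave under the conditions of these data. Genomic spans came from the RefSeq table of GRCm38.p6, in which 47 members matched. Members, lists and naming rule were chosen with earlier results of these data known. Values on every array are given for the 8 largest positive and 6 largest negative called differences without overlap, for Kpnb1, Xpo1 and Ran, and for the 4 pairs. From each related list the 4 genes with the smallest adjusted p were named. Same-numbered replicates did not deviate together (correlations 0.024, 0.111 and -0.06), so numbers were not taken as pairs. Figures used matplotlib 3.10.9.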

Additional observations from a re-analysis of the deposited data

How the results depend on the processing

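Alternatives were a replicate block, an intensity trend, cyclic loess, centring on the brightest probe sets, leaving out dim genes, other choices of probe set, array weights, leaving out each array, and a test against a 1.2-fold change. Apart from the last, 36 members were higher and 5 lower in every one of these fits, the exceptions being Nup54 and Kpna2. Against a 1.2-fold change, which asks for more than a difference from 0, 22 of the 47 members passed (20 higher, 2 lower). Of all 19938 genes 4856 passed (3034 higher, 1822 lower), and the brighter genes were not counted apart. The 2 lower members were Nup43 and Nup37, while Ran, Rae1, Nup62 and Kpna2 did not pass. Among the higher members none from Xpo7 (0.38) downward passed, which includes Nup133, Nup160, Xpo1 and Nup93. With the replicate block 43 members were called, as without it, and the block changed no member's call. The members' median difference was 0.22 after cyclic loess and 0.28 after centring, and 0.317 to 0.350 when single arrays were left out. Under these scalings the higher genes were 52.9% and 56.1% of all calls, against 64.4%. Of the members that did not pass, Seh1l turned to -0.089, -0.018 and -0.025 and Kpna7 to -0.014, -0.024 and -0.0037 (cyclic loess, centring, without stau2 replicate 3), past no threshold. Leaving out single arrays gave -0.025 to 0.048 for Seh1l and -0.0037 to 0.034 for Kpna7. The causes were not tested. Background correction and scan batches were not varied, since values were used as deposited. Signal near background limits Nup210 and Kpna7.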
